A study of Mus musculus with 4 samples.

Results

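The genes described here are the 20 cytosolic aminoacyl-tRNA synthetase genes and 17 further genes of the ATF4 amino acid response, 37 in all, listed by symbol. They were looked up in a ribosome profiling table of 10327 mouse genes, and 34 were found there: all 20 synthetases and 14 of the ATF4 genes. Ddit3, Chac1 and Pycr1 were not analysed here, and the remaining genes are reported in 2 groups throughout. The libraries came from epidermal keratinocytes of newborn mice at postnatal day 0, 2 from controls (Ctrl, genotype K14Cre,Mettl14F/+) and 2 from conditional knockouts (cKO, K14Cre,Mettl14F/F), with no treatment. Mice of both groups carried the Cre transgene, which the K14 promoter drives in basal keratinocytes, and the controls had 1 floxed allele of Mettl14 where the knockouts had 2. METTL14 is a core subunit of the enzyme complex that writes N6-methyladenosine on mRNA. Footprints, the stretches of mRNA shielded by ribosomes, were sequenced, so a gene's value reflects both its mRNA level and its ribosome load, and total RNA was not analysed here.

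Aminoacyl-tRNA synthetases join each amino acid to its own tRNAs and so supply the ribosome with charged tRNA. Many of their genes share with the others described here a regulator, the transcription factor ATF4. When a kinase such as GCN2 or PERK phosphorylates the initiation factor eIF2, for instance on amino acid shortage or protein misfolding, initiation slows on most mRNAs while the main reading frame of Atf4 mRNA, normally kept silent by short upstream reading frames, is translated. ATF4 then binds C/EBP-ATF response elements (CARE) and raises the transcription of genes for amino acid synthesis, amino acid uptake and tRNA charging. In epidermis, where keratinocytes make large amounts of keratin and cornified envelope protein, this arm of metabolism feeds protein synthesis.

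The promoters show how far the 2 groups share this element. RefSeq windows (GRCm38.p6) of 300 bases, 250 before and 50 after the annotated transcription start, were matched by symbol for 30 of the 37 genes, 13 synthetases and 17 ATF4 genes. The CARE core TGATGNAA, searched on both strands, was in the window of 11 of the 30 genes (36.7%), and among all 27025 genes with a window 1219 held it (4.51%). Of the 13 synthetases 5 held it (Aars, Gars, Iars, Tars and Yars), and of the 17 ATF4 genes 6 did (Asns, Trib3, Nupr1, Vldlr, Chac1 and Pycr1). The cyclic AMP response element TGACGTCA, searched likewise and differing from that core in its letters, was in none of the 30 and in 2.03% of all genes with a window. At so low a share, its absence from 30 genes does not set them apart. Such a match describes letters only and does not show that a factor binds there. The 17 genes were listed as members of the ATF4 response, so their share is no independent evidence of a link to ATF4. The sites of 8 of the 9 measured genes are given below on the strand on which the core reads TGATGNAA, with the core in capitals, so that the bases around it can be compared.

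Asns (chr6:7693215-7693242, minus strand): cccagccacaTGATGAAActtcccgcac
Gars (chr6:55037961-55037988, minus strand): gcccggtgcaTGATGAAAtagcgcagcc
Tars (chr15:11399656-11399683, plus strand): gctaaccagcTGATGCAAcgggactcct
Yars (chr4:129189896-129189923, plus strand): cgagctcagcTGATGCAAcccgacggga
Iars (chr13:49682127-49682154, minus strand): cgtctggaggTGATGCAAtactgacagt
Trib3 (chr2:152344029-152344056, plus strand): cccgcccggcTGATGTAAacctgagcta
Nupr1 (chr7:126625563-126625590, plus strand): aagccctgtcTGATGCAAtctggccctt
Vldlr (chr19:27216810-27216837, minus strand): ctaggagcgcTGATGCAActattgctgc

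Counted from the RefSeq start, the core began 23, 30 and 15 bases before it in Asns, Gars and Tars. In Nupr1 it began 110 bases before that start, and in Vldlr 200 bases before it. In Trib3, Yars and Iars it lay just after the RefSeq start, from positions 15, 4 and 8. The GENCODE gene limits, used for the gene positions below, differ. By them the cores of Asns, Nupr1 and Vldlr lie inside the gene, and that of Trib3 lies upstream of it. The 250 bases before the RefSeq start of Asns, the asparagine synthetase gene and a textbook ATF4 target, are shown whole. Its single core lies at their end nearest that start.

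Asns promoter (chr6:7693210-7693459, minus strand): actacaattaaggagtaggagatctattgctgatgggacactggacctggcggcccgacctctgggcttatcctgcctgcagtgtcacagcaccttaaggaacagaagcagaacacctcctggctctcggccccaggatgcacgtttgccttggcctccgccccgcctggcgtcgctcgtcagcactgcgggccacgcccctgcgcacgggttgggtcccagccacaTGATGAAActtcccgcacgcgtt

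The libraries held 933574 and 624167 reads in Ctrl 1 and Ctrl 2 and 542074 and 751948 in cKO 1 and cKO 2. Mettl14 had 26 and 17 reads in the Ctrl libraries and 5 and 4 in the cKO libraries. Although limma, the main test below, put this targeted gene at -1.83 on the log2 scale, it was not called. Its p after adjustment over all genes was 0.122 with limma and 0.185 with edgeR and TMM. At such read counts, a gene that does not pass may therefore still differ between the groups. Keratinocyte markers were abundant: the 7 suprabasal markers summed to 120080 to 132320 CPM (reads per 1000000) in Ctrl and 178230 to 191250 in cKO, and the 7 basal markers to 20999 to 23296 and 10423 to 11892 CPM. All 9 fibroblast markers had reads (1363 to 2107 CPM in cKO, 2897 to 4546 in Ctrl), as did 5 of 6 red blood cell markers, whose sum was 526 CPM in cKO 1 and 80.1 to 120.0 CPM in the other libraries. Of 6 immune markers 3 were measured (136 to 363 CPM over all libraries), and all 5 melanocyte markers were (684 to 1330 CPM). Whether replicate libraries stem from different animals is not stated in the labels, and p-values therefore measure only the spread between these samples, which may be technical. Over all genes the median log2 change, cKO minus Ctrl, was -0.245, and changes are read against that value.

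No synthetase and no other ATF4 gene passed the test for a difference between cKO and Ctrl (limma on log2(CPM + 1), Benjamini-Hochberg adjusted over all 10327 genes; smallest adjusted p among the 34 genes 0.200, for Rars). Of all genes, 0.368% were called higher and 0.3% lower by the same test. At an unadjusted p under 0.05, 3 of the 34 genes were lower (Dars, Lars and Rars) and 0 higher, beside 10.8% and 3.5% of all genes. On the recovered reads edgeR with TMM also called 0 of the 34, beside 1.58% of all genes called higher and 0.126% lower; at an unadjusted p under 0.05 it had 3 of the 34 higher, beside 7.34% of all genes. DESeq2 called 0 of the 27 genes to which it gave an adjusted p, with 1 of the 34 at an unadjusted p under 0.05, and it gave none to 7 genes, Atf4 and Trib3 among them. Only a fit with the replicate number as a block, which no label justifies, called a gene of the 34, Rars, lower; it called 5.64% of all genes lower and 2.49% higher. The median log2 change was -0.32 for the synthetases and -0.30 for the other ATF4 genes, close to the median of all genes. In such bulk samples a lower value can stem from fewer cells expressing the gene, or from less RNA or fewer ribosomes per cell. These cannot be told apart. The values also depend on the scaling. With edgeR and TMM the medians were -0.052 for the synthetases, -0.063 for the other ATF4 genes and 0.0018 for all genes.

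The intervals show what size of change between these samples the fit leaves room for. They rest on the spread between replicate libraries, which may be technical, and so may not bound the change between genotypes. For all 20 synthetases the upper bound of limma's 95% interval lay under a log2 change of 1, which is 2 times the Ctrl level, and for 14 of 20 the lower bound lay above -1, which is 0.5 of it. Among the other ATF4 genes 11 of 14 had an upper bound under 1, and the 3 exceptions were Atf4, Trib3 and Mthfd2, all with at most 13 reads in any library. The lower bound was above -1 in 6 of 14. These bounds are for CPM values without centring and are not set against -0.245, the middle value of all genes. Counts against 1 and -1 thus depend on the scaling. Median centring moved Rars from -0.60 to -0.39 and Cebpb, whose upper bound of 0.99 lay just under 1, from 0.48 to 0.69. Intervals after centring are not given here. Of the synthetases 0, but of the 14 other genes 7, had under 20 reads in some library, and the median standard error was 0.24 and 0.36 in the 2 groups.

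**Figure D1:**
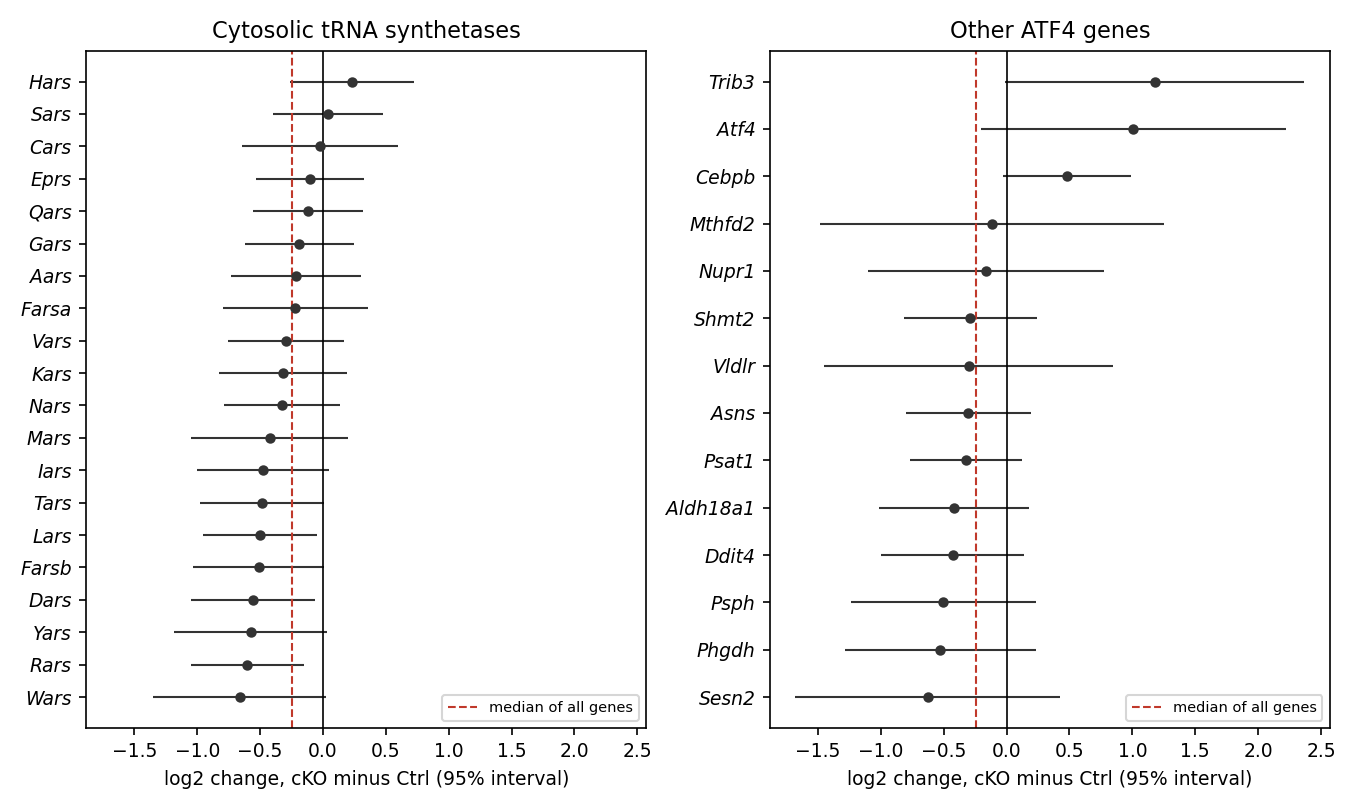
Log2 change, cKO minus Ctrl, of each measured gene (points) with limma's 95% interval (bars); the left panel holds the 20 synthetases and the right panel the 14 other ATF4 genes, and the dashed line marks the median of all genes at -0.245. The synthetases run from -0.66 to 0.23, whereas the other genes run from -0.63 to 1.18 with Trib3, Atf4 and Cebpb at the top.

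Compared per length of coding sequence (RPKM over the longest annotated coding sequence, mean of the 4 libraries), the synthetases were expressed at a narrow range of levels. They ran from 29.7 (Cars, cysteine) to 171 (Sars, serine), a 5.76-fold range, with a median of 76.5 against 19.3 for all genes. All 20 stood above the median of all genes, and 16 were among the top 25% of genes. After Sars came Gars (162), the glycine enzyme, which also serves mitochondria, then Qars (glutamine, 142), Hars (histidine, 139) and Rars (arginine, 130). At the low end Cars was followed by Iars (isoleucine, 35.2), Wars (tryptophan, 39.4) and Yars (tyrosine, 47.0). Farsa and Farsb encode the subunits of the phenylalanine enzyme, which contains equal numbers of each. The level of Farsa divided by that of Farsb was 0.712 and 0.808 in Ctrl 1 and Ctrl 2 and 0.899 and 0.962 in cKO 1 and cKO 2. The measured level of Farsa was thus the lower in each library. In cKO 1 and cKO 2 this rests on 38 and 68 reads of Farsa and 49 and 82 of Farsb. Whether these ratios differ from 1 beyond counting error was not tested.

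**Figure D2:**
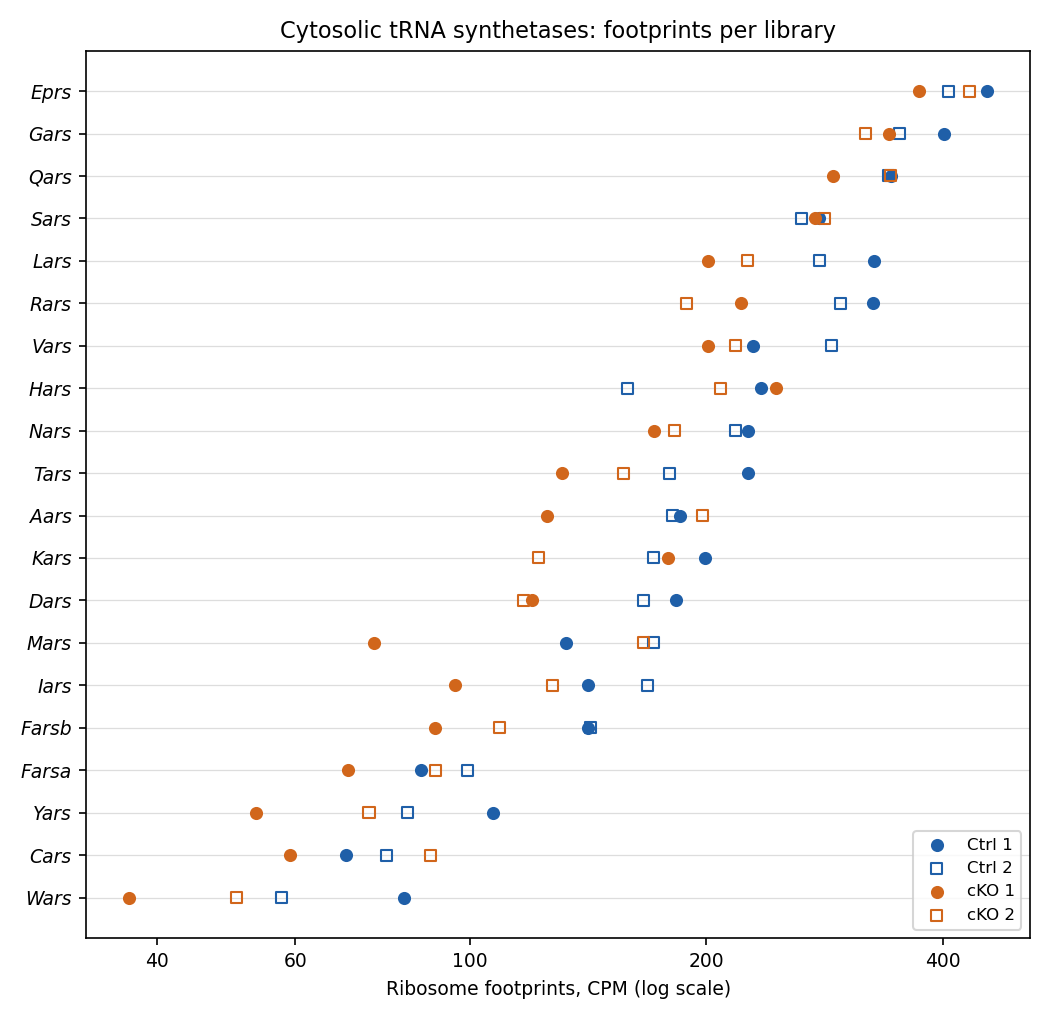
Footprints per library (CPM, log axis) of the 20 synthetases, ordered by their mean; blue marks Ctrl and orange cKO, filled circles replicate 1 and open squares replicate 2. For 11 genes both orange marks lie left of both blue ones, and for none right of both.

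The cKO libraries were both lower than either Ctrl library for 11 of the 20 synthetases (55.0%) and both higher for 0. Over all genes the shares were 34.1% lower and 11.1% higher. They are not matched for depth: 6534 of the 10327 genes, but 0 of the synthetases, had under 20 reads in some library. Added up, the synthetase footprints made 0.438% of those in Ctrl 1 and 0.410% of those in Ctrl 2, with exact (Clopper-Pearson) 95% limits of 0.424 to 0.451% and 0.395 to 0.427%. In cKO 1 they made 0.336% (limits 0.320 and 0.351%), and in cKO 2 0.370% (0.357 and 0.384%); such limits cover counting error only. The summed share was thus lower in both cKO libraries, whose intervals do not reach those of the Ctrl libraries. These shares are not set against the median log2 change of all genes, which was itself negative at -0.245. The median of the synthetases, -0.32, was close to it. The summed suprabasal markers, given above, took 17.8 to 19.1% of reads in the cKO libraries and 12.0 to 13.2% in the Ctrl libraries, while the summed basal and fibroblast markers, also given above, were lower in both cKO libraries, as the synthetases were. The part of these markers in the difference was not tested.

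Rars (ENSMUSG00000018848, chromosome 11, 35808381 to 35834506, minus strand, GRCm38) had the smallest p of the group. It stood at 326 and 296 CPM in Ctrl 1 and Ctrl 2 and at 221 and 189 CPM in cKO 1 and cKO 2, a log2 change of -0.60 ± 0.22 (SE; 95% interval -1.05 to -0.15; limma adjusted p = 0.200). Both cKO libraries were below both Ctrl libraries. Dars, the aspartate enzyme, showed the same order with 183 and 167 CPM against 119.9 and 117 CPM, a log2 change of -0.56 ± 0.24. Wars had the most negative change, -0.66 ± 0.33, on 77 and 36 reads in Ctrl and 20 and 38 in cKO (82.5 and 57.7 against 36.9 and 50.5 CPM). Yars, with 107 and 83.3 against 53.5 and 74.5 CPM, had -0.57 ± 0.29. None of these 4 passed over all genes.

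At the other end Hars had 235 and 159 CPM in Ctrl and 245 and 209 CPM in cKO, a log2 change of 0.23 ± 0.24 with overlapping groups. Its exons overlap those of Hars2 on the other strand, and because the strand setting of the counting is not given in the sources used here, reads of the 2 genes may be mixed. Sars had 279 and 264 CPM in Ctrl and 275 and 283 CPM in cKO (0.04 ± 0.21), which is 0.29 above the median of all genes. Cars had 69.6 and 78.5 against 59.0 and 89.1 CPM (-0.03 ± 0.30). Eprs, which encodes a fusion of the glutamate and proline enzymes and has the longest coding sequence of the group (4536 bases), had 455 and 407 against 373 and 432 CPM (-0.10 ± 0.21). Gars, second in level, had 402 and 352 against 341 and 319 CPM, a small difference of -0.19 ± 0.21 with both cKO libraries below both Ctrl libraries.

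In Mars, the methionine enzyme, the cKO libraries stood far apart, with 41 and 125 reads (75.6 and 166 CPM) against 133 and 171 CPM in Ctrl. Without cKO 1 its log2 change was 0.14 and without cKO 2 it was -0.99. Its exons overlap those of Ddit3 on the other strand. The remaining synthetases, Aars, Farsa, Farsb, Iars, Kars, Lars, Nars, Qars, Tars and Vars, had log2 changes between -0.51 and -0.12, all with adjusted p of 0.307 or more (limma). Exons of Aars, Cars, Farsb and Yars also overlap another annotated gene.

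Grouped by fold of the catalytic domain, the 10 class I synthetases (Eprs counted here by its glutamate enzyme) had a median log2 change of -0.45 and the 10 class II synthetases one of -0.27, and the ranges overlapped widely (-0.66 to -0.03 and -0.56 to 0.23). Of the vertebrate synthetases 8 of the genes here (Dars, Eprs, Iars, Kars, Lars, Mars, Qars and Rars) encode enzymes held in 1 large cytosolic complex, and these had a median of -0.45. Its 3 scaffold proteins stood lower: Aimp1, Aimp2 and Eef1e1 had log2 changes of -0.60 ± 0.27, -0.69 ± 0.30 and -0.73 ± 0.41, and none passed (limma adjusted p = 0.317, 0.306 and 0.419). Aimp1 had 174 and 114 CPM in Ctrl and 97.8 and 87.8 CPM in cKO, and Eef1e1 had 42.8 and 35.2 against 22.1 and 23.9 CPM. For each of the 3 both cKO values were under both Ctrl values, as for 34.1% of all genes, and their summed share of reads was 0.0302% and 0.0240% in Ctrl 1 and Ctrl 2 against 0.0164% and 0.0178% in cKO 1 and cKO 2. Exons of Aimp1 and Aimp2 overlap those of other genes on the opposite strand.

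**Figure D3:**
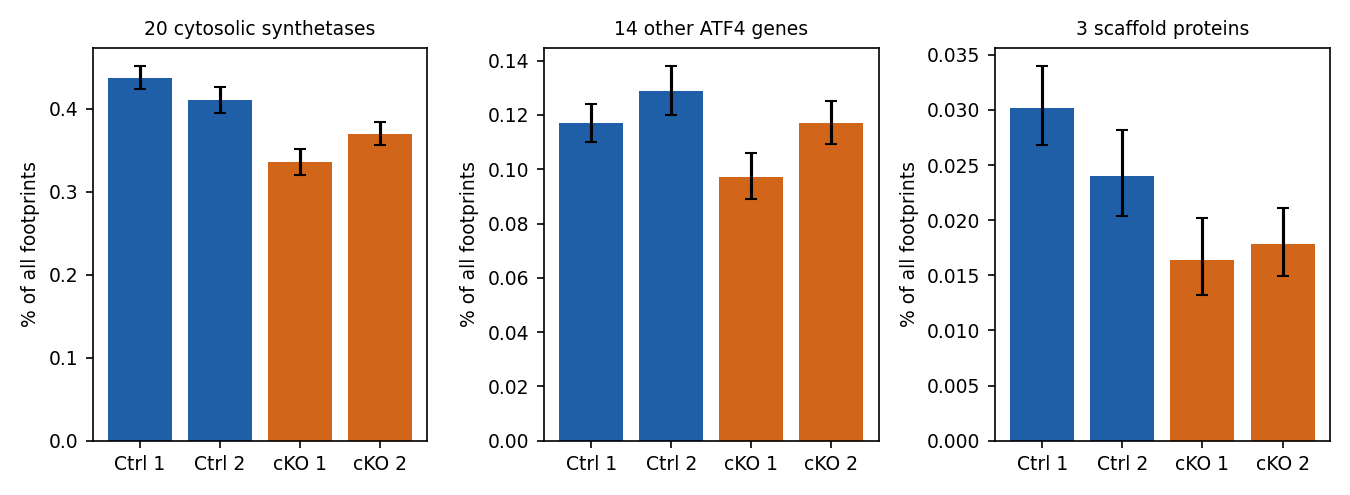
Share of all footprints taken by the 20 synthetases, the 14 other ATF4 genes and the 3 scaffold proteins of the synthetase complex in each library (bars) with exact 95% binomial intervals; each vertical axis starts at 0. The synthetase share is 0.438 and 0.410% in Ctrl and 0.336 and 0.370% in cKO. That of the other ATF4 genes is 0.11697 and 0.12865% in Ctrl and 0.0972 and 0.11703% in cKO. The groups there overlap only narrowly, by Ctrl 1 and cKO 2.

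The mitochondrial synthetases, nuclear genes that charge tRNA inside mitochondria, sat far below the cytosolic group in median level. Iars2 was an exception, at 54.3 RPKM of coding sequence against 35.2 for its cytosolic counterpart Iars. All 17 mitochondrial synthetases were measured, with a median of 10.0 RPKM of coding sequence against 76.5 for the cytosolic group. Of these 17 genes, 14 had under 20 reads in some library. Their median log2 change was -0.30, none passed, and 9 of 17 lay below the median of all genes. The extremes rested on few reads: Pars2 (proline) had 4 and 2 reads in Ctrl and 7 and 5 in cKO (1.13 ± 0.65), and Vars2 (valine) had 9 and 15 in Ctrl and 1 and 5 in cKO (-1.81 ± 0.68; limma adjusted p = 0.218).

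Of the 14 other ATF4 genes, 3 had both cKO libraries higher than either Ctrl library, Atf4 itself, Trib3 and Cebpb (21.4%, beside 11.1% of all genes), and 5 had both lower (35.7%, beside 34.1%). None of the 14 passed the test. Atf4 (ENSMUSG00000042406, chromosome 15, 80255184 to 80257541, plus strand) had 7 and 4 reads in Ctrl and 7 and 13 in cKO. In CPM that was 7.50 and 6.41 in Ctrl 1 and Ctrl 2 and 12.9 and 17.3 in cKO 1 and cKO 2, a log2 change of 1.01 ± 0.59 (95% interval -0.21 to 2.22; limma adjusted p = 0.443). The groups did not overlap, but the difference did not pass. Its full-length annotated transcript has 594 bases before the coding sequence of 1047 bases, with 3 ATG triplets in them, and since the counted feature is not given in the sources used here, footprints on upstream reading frames may be among these reads.

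Trib3, a pseudokinase induced by ATF4 that in turn restrains it, had counts much like those of Atf4: 7 and 4 reads in Ctrl, 9 and 13 in cKO, or 7.50 and 6.41 against 16.6 and 17.3 CPM. Its log2 change of 1.18 ± 0.57 did not pass (95% interval -0.01 to 2.37; limma adjusted p = 0.357). Cebpb, a leucine zipper transcription factor that can pair with ATF4, was far more abundant, at 189.6 RPKM of coding sequence against 10.5 for Atf4. It had 121 and 160.2 CPM in Ctrl and 172 and 221 CPM in cKO, a log2 change of 0.48 ± 0.24 (limma adjusted p = 0.380), and its exons overlap those of Tmem189 on the other strand. With edgeR and TMM on the recovered reads the unadjusted p-values of Atf4, Trib3 and Cebpb were 0.0375, 0.0204 and 0.00595, and after adjustment none passed (0.405, 0.312 and 0.157). With 1 library left out the log2 change ran from 0.81 to 1.20 for Atf4, from 1.08 to 1.28 for Trib3 and from 0.28 to 0.68 for Cebpb, and since the groups of these genes do not overlap, its sign could not turn.

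**Figure D4:**
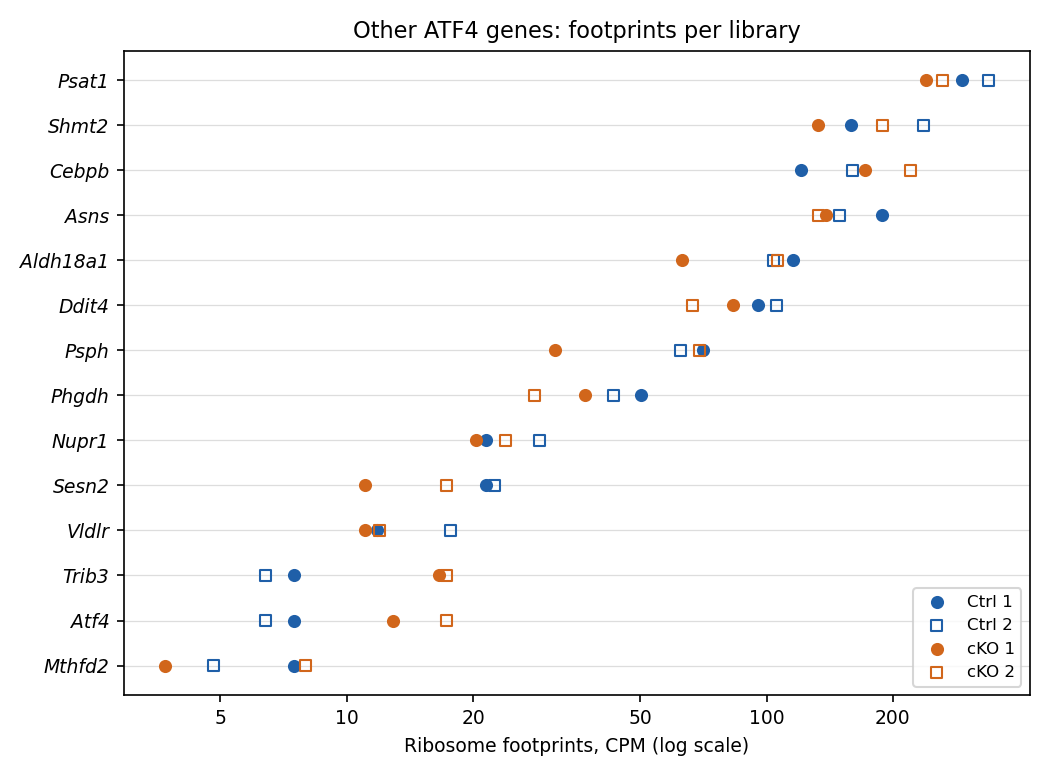
Footprints per library (CPM, log axis) of the 14 other ATF4 genes, ordered by their mean; blue marks Ctrl and orange cKO, filled circles replicate 1 and open squares replicate 2. In Cebpb, Trib3 and Atf4 both orange marks lie right of both blue ones, and the latter 2 genes are among the 3 with the fewest footprints.

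Other stress-induced members did not share that order. Sesn2 and Ddit4, which both restrain the growth kinase mTORC1, had both cKO libraries below both Ctrl libraries. Sesn2 had 21.4 and 22.4 CPM in Ctrl and 11.1 and 17.3 CPM in cKO, on 6 to 20 reads (-0.63 ± 0.51), and Ddit4 had 95.3 and 106 against 83.0 and 66.5 CPM (-0.43 ± 0.28). Nupr1, a small stress-induced nuclear protein, had 11 to 20 reads per library and a log2 change of -0.17 ± 0.45. Vldlr, a lipoprotein receptor, had 6 to 11 reads and -0.30 ± 0.56.

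Asns (ENSMUSG00000029752, chromosome 6, 7675169 to 7693254, minus strand), whose promoter is printed above, had 189 and 149 CPM in Ctrl 1 and Ctrl 2 and 138 and 133 CPM in cKO 1 and cKO 2. Both cKO libraries were below both Ctrl libraries, and the log2 change was -0.30 ± 0.24 (95% interval -0.80 to 0.20; limma adjusted p = 0.598), near the median of all genes. At 90.4 RPKM of coding sequence it stood at the 86.9th percentile of genes, so its value rests on 75 to 176 reads. Over the 9 measured genes with the CARE core the median log2 change was -0.30, and over the 18 measured genes whose window lacked it the median was -0.32.

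The serine pathway makes serine from a glycolytic intermediate in 3 steps, catalysed by Phgdh, Psat1 and Psph, and Shmt2 and Mthfd2 then pass serine carbon to folate inside mitochondria. All 5 genes had a negative log2 change, from -0.53 to -0.11, with 4 below the median of all genes and none past the test (smallest limma adjusted p 0.512). Psat1 had the highest level of all 34 genes, 255 RPKM of coding sequence, and 292 and 338 CPM in Ctrl against 239.8 and 262 CPM in cKO (-0.33 ± 0.21). The groups did not overlap. Phgdh, the entry enzyme, stood at 24.8 RPKM and had 50.3 and 43.3 against 36.9 and 27.9 CPM (-0.53 ± 0.37). Psat1 exceeded Phgdh per coding length by 8.37-fold and 11.3-fold in Ctrl 1 and Ctrl 2 and by 9.36-fold and 13.5-fold in cKO 1 and cKO 2.

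Psph had 70.7 and 62.5 CPM in Ctrl, but 31.4 CPM in cKO 1 and 69.2 in cKO 2, and its log2 change of -0.50 ± 0.36 was 0.06 without cKO 1. Shmt2 had 159 and 237 CPM in Ctrl and 133 and 189 CPM in cKO, with overlapping groups (-0.29 ± 0.26). Mthfd2 was barely detected, with 7 and 3 reads in Ctrl and 2 and 6 in cKO (-0.11 ± 0.66). Its interval, -1.48 to 1.26, reaches past -1 and past 1. In proline synthesis Aldh18a1, which catalyses its opening steps, had 116 and 104 CPM in Ctrl and 62.7 and 106 CPM in cKO (-0.42 ± 0.29), and again cKO 1 was the low library. Exons of Psph and Shmt2 overlap those of Cct6a and Ndufa4l2 on the other strand.

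Amino acid uptake is the other arm of the ATF4 response, and here 8 of 9 transporters on the list were measured, with a median log2 change of -0.18 and none past the main test. Slc7a11, the cystine and glutamate exchanger (ENSMUSG00000027737, chromosome 3), had the highest log2 change of them. It had 53 and 37 reads in Ctrl and 96 and 56 in cKO, or 56.8 and 59.3 CPM against 177 and 74.5 CPM, a log2 change of 0.97 ± 0.33 (95% interval 0.29 to 1.66; limma adjusted p = 0.172). Both cKO libraries were above both Ctrl libraries, but cKO 1 stood far above cKO 2, and the log2 change was 0.36 without cKO 1 and 1.59 without cKO 2. The summed red blood cell markers were also highest in cKO 1, and their part in this was not tested. With edgeR and TMM it was called higher (log2 change 1.34, adjusted p = 0.0327; 1.58% of all genes were called higher by that test), but not with DESeq2 (adjusted p = 0.0950) or edgeR with library totals (0.111). At the other end Slc1a5, a glutamine carrier, had 30.0 and 46.5 CPM in Ctrl against 14.8 and 30.6 CPM in cKO (-0.78 ± 0.45), with overlapping groups.

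Upstream of ATF4, 15 of 16 genes for the eIF2 kinases, eIF2 subunits, the exchange factor eIF2B and their regulators were measured, and none passed (median log2 change -0.22). Ppp1r15a, the stress-induced subunit that directs a phosphatase to eIF2, was highest at 0.95 ± 0.69 on 1 and 2 reads in Ctrl and 3 and 3 in cKO. Impact, an inhibitor of GCN2 activation, was lowest at -1.50 ± 0.58 (limma adjusted p = 0.234), on 15 and 14 reads in Ctrl and 3 and 5 in cKO. Of 15 further ATF4 partners and targets 11 were measured, and again none passed (median -0.25). They ran from Eif4ebp1, a repressor of cap-dependent initiation, at -0.98 ± 0.63 to Pck2, the mitochondrial enzyme that makes phosphoenolpyruvate, at 0.58 ± 0.56, which was -0.04 without cKO 1 (29.5 CPM there, against 12.0 in cKO 2 and 11.8 and 12.8 in Ctrl).

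**Figure D5:**
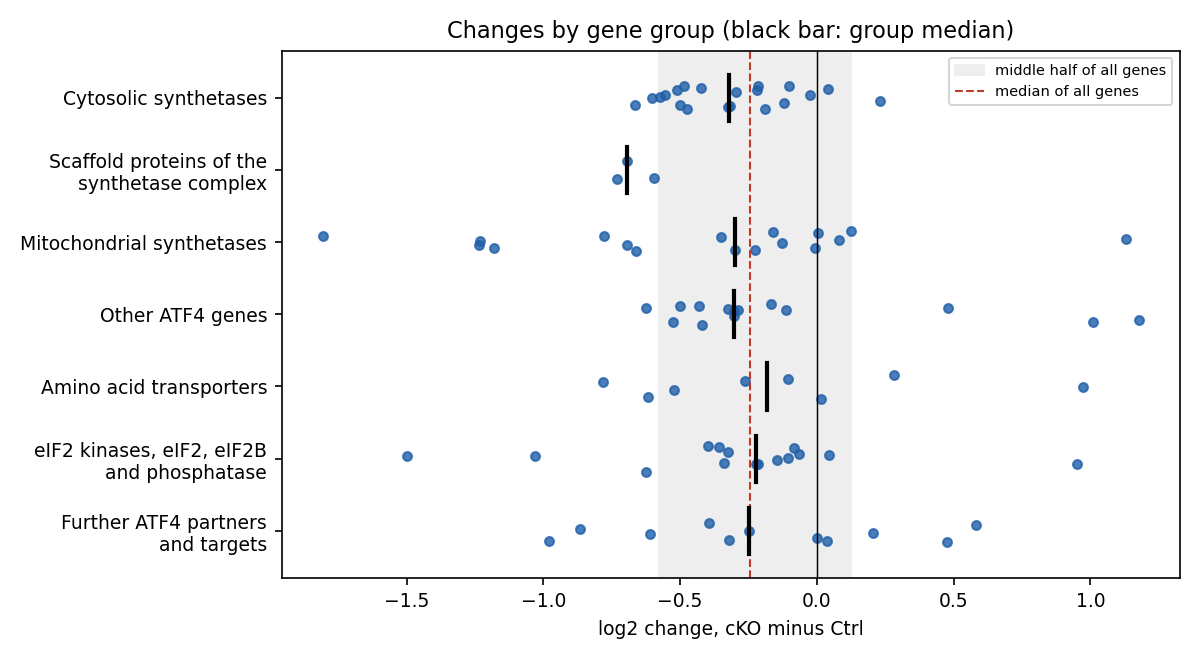
Log2 change, cKO minus Ctrl, of each measured gene by group (points, spread vertically for legibility) with the group median (black bar); the dashed line is the median of all genes at -0.245 and the grey band holds the middle 50% of all genes, from -0.58 to 0.12. Apart from the 3 scaffold proteins at -0.69, the group medians lie between -0.32 and -0.18, inside the band.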

How the data were processed

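Per the labels' protocols, cells were washed and lysed in cycloheximide, which holds ribosomes on mRNA, RNase I cut the unprotected RNA, and footprints were selected by size. fastp, HISAT2, HTSeq and build GRCm38 are named in the submitters' processing notes; their versions, the counted feature, strand setting and filters were not given in the sources used here. CPM values for 10327 genes were deposited by the authors, each column summing to 1000000. Dividing by the CPM worth of 1 read gave whole numbers for 100% of values, within 1e-06, with 1 read as the minimum. WT in a column header was read as Ctrl with that number, the labels having no other group.

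Symbols, positions and coding lengths came from GENCODE for GRCm38 (10327 identifiers matched). Genes with 1 CPM or more in 2 libraries were kept (all genes), and limma 3.58.1 with a mean-variance trend was fitted to log2(CPM + 1) over all genes in R 4.3.3, with group as the only term; a gene was called at a Benjamini-Hochberg adjusted p under 0.05. Fold changes on this scale understate low genes. With 2 libraries a group, no rank test or permutation of group labels for a single gene could pass. Alternatives used edgeR 4.0.16 and DESeq2 1.42.0 on the recovered reads. The limma step was run on simulated counts with the same spread setting for every gene. That run does not show how well changes are found in genes that differ in spread. Genes and lists were chosen with earlier results of these data known. Every measured gene may be named, with library values for Atf4, Asns, the 4 highest and 4 lowest changes and the 2 highest levels of each group; of the other lists the highest and lowest change are named. Library values of Mars, Shmt2 and Aldh18a1, and Aimp2, were added after their values were seen. Of the measured genes with the CARE core, the promoter site of 1 is not reported here, and the sites of Chac1 and Pycr1 are not shown.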

Additional observations from a re-analysis of the deposited data

How the results depend on the processing

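The count of called synthetases and of other ATF4 genes, 0 in each direction, was the same under every alternative run except the replicate number as a block, which called 1 synthetase lower (Rars, adjusted p = 0.0149) and 257 genes higher and 582 lower over the table; DESeq2 gave 7 of the 34 genes no adjusted p, and these are outside its count. No label pairs equally numbered libraries (the correlation of their deviations from the group means was 0.195, with only 2 pairs), and among the transporters the block also called Slc7a11 higher (adjusted p = 0.00706) and Slc38a2, named after its values were seen, lower (log2 change -0.52, adjusted p = 0.0143).

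The median log2 change, -0.32 for synthetases and -0.30 for other ATF4 genes, moved with the scaling: to -0.11 and -0.094 after median centring, -0.052 and -0.063 with edgeR and TMM, and -0.070 and -0.084 with DESeq2. The median of all genes moved as well, to -0.037, 0.0018 and -0.015. With 1 library left out the medians ran from -0.44 to -0.25 and from -0.39 to -0.049, the last without cKO 1.

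Over all genes, 38 were called higher and 31 lower. The counts were 105 and 8 after centring, 163 and 13 with edgeR and TMM, 62 and 56 with edgeR and library totals, 83 and 4 with DESeq2, 14 and 9 among the 7295 genes with a mean of 10 or more reads, and from 0 to 104 and from 0 to 44 with 1 library left out, with 0 called without cKO 1 or cKO 2 (940 and 928 at an unadjusted p under 0.05). A pseudocount of 0.5 changed no call among the 34 genes.

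Signs near 0 turned positive with scaling in 8 genes of the 34. After centring, with TMM and with DESeq2 the log2 changes were 0.18, 0.28 and 0.26 for Cars (0.024 with library totals), 0.11, 0.15 and 0.14 for Eprs, 0.020, 0.057 and 0.044 for Gars, 0.089, 0.14 and 0.13 for Qars, 0.094, 0.19 and 0.17 for Mthfd2 and 0.042, 0.10 and 0.076 for Nupr1. With TMM and DESeq2 they were 0.087 and 0.070 for Aars and 0.059 and 0.039 for Farsa. With 1 library left out the sign was not fixed for Aars (-0.54 to 0.11), Cars (-0.32 to 0.27), Eprs (-0.21 to 0.006), Hars (-0.051 to 0.51), Mars (-0.99 to 0.14), Qars (-0.24 to 0.0024), Psph (-1.06 to 0.056), Mthfd2 (-0.58 to 0.35), Nupr1 (-0.37 to 0.039) and Pck2 (-0.035 to 1.20). Depth limits Atf4, Trib3, Mthfd2 and Vldlr, which a mean of 10 reads removes.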
